A study of Drosophila melanogaster with 3 samples.

Results

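The transcription factors examined here are *Hand* (CG18144) and 9 further regulators of the *Drosophila* heart, namely *tin* (CG7895), *pnr* (CG3978), *Doc1* (CG5133), *Doc2* (CG5187), *Doc3* (CG5093), *svp* (CG11502), *mid* (CG6634), *H15* (CG6604) and *Mef2* (CG1429). They were looked up by CG number among the 7498 gene numbers with at least 1 array value. A row was found for 6 of the 10 genes, *Hand*, *Doc1*, *Doc2*, *svp*, *mid* and *Mef2*, whereas *tin*, *pnr*, *Doc3* and *H15* are unmeasured. Each of the 6 had exactly 1 value, and in every case this value came from array 3. None of them can therefore be given with an error, and none could be scored by a rule that asks for 2 arrays.

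Larval heart RNA of homozygous hand[173] null mutants was set against that of w[1118], which served as wild type, on 3 spotted arrays with 2 colours. Both strains were raised at 22 °C, and hearts were taken from wandering 3rd instar larvae that had been heated to 60 °C for 15 s. About 100 heart tubes per genotype were dissected together with attached tissue, given as pericardial cells and longitudinal ventral muscles in the labels and as pericardial cells and alary muscles in the methods. The methods describe 1 RNA pool per genotype and technical replicates, so that the arrays repeat the hybridization and not the animals, although the sample titles carry the abbreviation bR. The mutant pool was labelled with Alexa Fluor 647 and the w[1118] pool with Alexa Fluor 555 on all 3 arrays, and an effect of dye cannot be told apart from an effect of genotype. The deposited values are log2 ratios of hand[173] over w[1118], so that a positive value stands for a higher transcript level in the mutant. In RNA from pools of dissected tissue, fewer cells of a type and less RNA per cell cannot be told apart.

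Heart formation in *Drosophila* rests on a small set of regulators that control each other and are conserved in vertebrates. The homeodomain protein Tinman (Tin), the GATA factor Pannier (Pnr) and the T-box proteins of the Dorsocross genes (*Doc1*, *Doc2*, *Doc3*) specify cardiac mesoderm in the embryo. *Hand*, which encodes a basic helix-loop-helix protein, is switched on downstream of Tin and Pnr in cardioblasts and pericardial cells. It is also expressed in the lymph gland. The orphan nuclear receptor Seven-up (Svp) marks the cardioblasts that form the inflow tracts and keeps *tin* off there. Midline (Mid) and H15 are a pair of T-box proteins related to vertebrate Tbx20 that act in cardioblast diversification, and the MADS-box factor Mef2 drives muscle differentiation in all muscle types including the heart.

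The arrays differed widely in how many gene numbers they covered. Array 1 held 1372 values (18.3% of all numbers), array 2 held 2650 (35.3%) and array 3 held 6459 (86.1%). A value on array 3 alone, the pattern of all 6 measured cardiac regulators, was found for 4006 numbers or 53.4% of the table, so that this pattern was the most frequent one. The median log2 ratio of array 3 was -0.56, a ratio of 0.680, and the quartiles of its values lay at -1.25 and -0.11. A ratio below 1 on this array is thus the usual case, with 5230 values below 0 and 1229 above 0 on the log2 scale. For this reason each value is given below as deposited and relative to the median of array 3.

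*Hand*, the gene inactivated in the mutant, had a log2 ratio of -0.16 on array 3, or 89.7% of the wild type level. This value was higher than 72.0% of all values on the array. Relative to the median of array 3 it lay at 0.40, a ratio of 1.32, just short of the study's upward threshold, which lies at 0.41 on the log2 scale. The methods state neither the extent of the lesion in hand[173] nor where the array probe lies, so that the value is no check of the genotypes. The ratio of *Hand* was thus not among the low ratios of array 3.

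Among the T-box genes, *Doc1* and *Doc2*, paralogs from the same gene cluster, lay on different sides of the array median. *Doc1* had a log2 ratio of -0.30 (81.3% of wild type), above 64.2% of the values of array 3. *Doc2* had a log2 ratio of -0.93 (52.3% of wild type), above 34.4% of the values. The gap between *Doc1* and *Doc2* was 0.64 on the log2 scale. *mid* had a log2 ratio of -0.66, or 63.5% of wild type, and with -0.10 after centring it was the gene closest to the median of the array. Centred values were 0.26 for *Doc1* and -0.38 for *Doc2*. Whether probes for one T-box gene also bind transcripts of a paralog was not tested, since probe sequences were not analysed here.

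*svp* had the lowest and *Mef2* the highest value of the 6 genes. *svp* lay at a log2 ratio of -1.28, or 41.1% of wild type, and only 24.0% of the values of array 3 were lower. After centring, its log2 ratio was -0.73, a ratio of 0.604. *Mef2* was the only one of the 6 genes with a ratio above 1 as deposited, with a log2 ratio of 0.23 or 117% of wild type, above 89.3% of the values. Its centred log2 ratio was 0.78, a ratio of 1.72. *svp* and *Mef2* were 1.51 apart on the log2 scale.

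**Figure D1:**
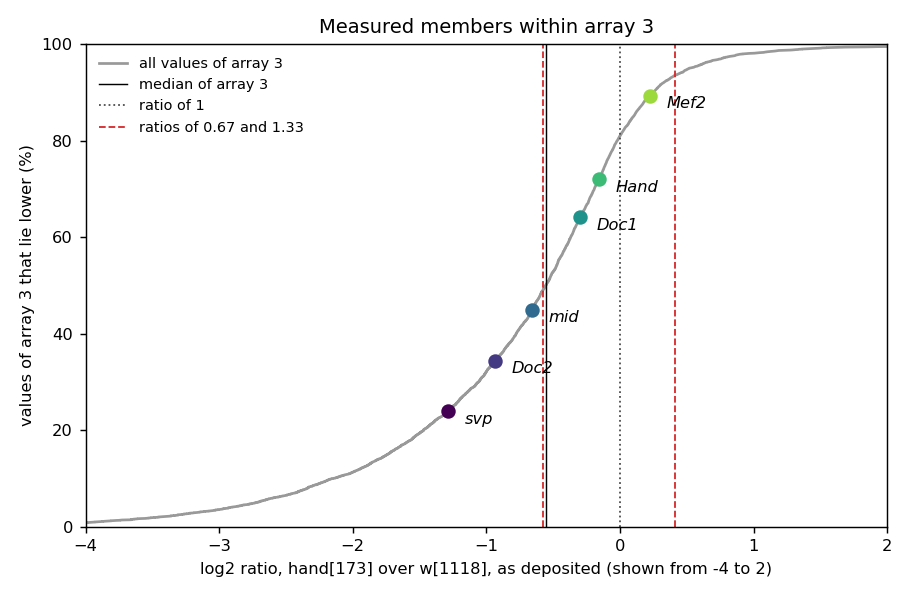
Log2 ratio of hand[173] over w[1118] on array 3 as deposited (horizontal axis) against the share of all 6459 values of this array that lie lower (vertical axis, %). The grey curve holds all values and the points are the 6 measured regulators, which spread from 24.0% (*svp*) to 89.3% (*Mef2*), with the array median at -0.56 and the study's thresholds at log2 ratios of -0.58 and 0.41 drawn as lines.

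The study's scoring asks for a ratio under 0.67 (a log2 ratio of -0.58), or for a log2 ratio over 0.41, on at least 2 of 3 arrays. By this rule 0 of the 10 regulators were lower and 0 were higher, and since none had 2 values, this outcome was fixed by the number of values and says nothing about their expression. Of the 2517 gene numbers with 2 or more values, 20.5% were lower and 9.69% were higher by the same rule. With each array centred on its median, the shares were 21.9% and 11.8%. No fit across arrays could be made for any of the 6 genes either, as it needs at least 2 values.

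On array 3 alone, *Doc2*, *svp* and *mid* lay under a ratio of 0.67, which makes 3 of the 6 measured genes. Of all values on this array, 49.0% lay under 0.67 as well, so that the count of cardiac regulators lies at the usual share. No regulator lay over the upward threshold, against 6.50% of all values. After centring, *svp* was the remaining gene under 0.67 (1 of 6, against 28.1% of all values), and *Mef2* was the gene over the upward threshold (1 of 6, against 27.3%). The median log2 ratio of the 6 genes was -0.48 as deposited and 0.08 after centring, against an array median of -0.56 before centring. Of the 6 genes, 3 lay above and 3 below the median of the array, and no test was made on single values.

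The deposited ratios of array 3 are multiples of 1 common factor. Divided by 0.458, 98.0% of 400 values compared were ratios with 3 decimals, within 0.1 of the last decimal. With e or 10 as the base of the logarithm at most 28.8% of the values of this array were, which shows base 2 to be the one used. For the 6 regulators the ratios before this factor were 2.551 for *Mef2*, 1.957 for *Hand*, 1.775 for *Doc1*, 1.385 for *mid*, 1.142 for *Doc2* and 0.896 for *svp*. On this scale 5 of the 6 genes lay above a ratio of 1 and 4 lay over the upward threshold, where 57.6% of all values of the array were found, while 0 of the 6 lay under 0.67, where 15.7% were. *Hand*, *Doc1*, *Doc2* and *mid* thus changed direction with the scale of the array, *svp* was below 1 and *Mef2* above 1 on each of the 3 scales, and the order of the genes is the same on all scales by construction.

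**Figure D2:**
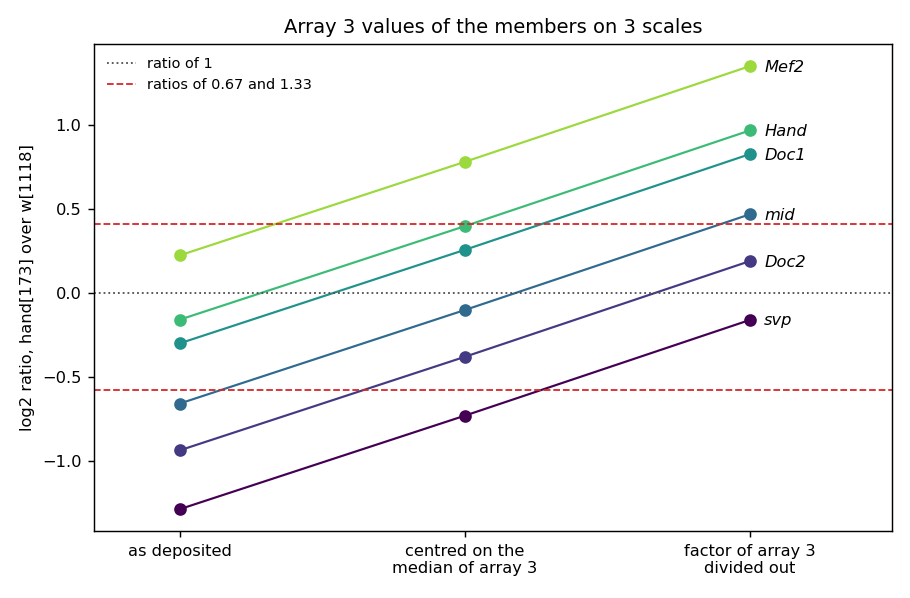
Log2 ratios of hand[173] over w[1118] of the 6 measured regulators on array 3 (vertical axis) as deposited, centred on the array median, and with the common factor of the array divided out. Only *svp* (-1.28, -0.73 and -0.16) and *Mef2* (0.23, 0.78 and 1.35) keep their side of a ratio of 1 (dotted line) on the 3 scales shown, and the dashed lines mark log2 ratios of -0.58 and 0.41.

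The order of the 6 genes on array 3 was *Mef2*, *Hand*, *Doc1*, *mid*, *Doc2* and *svp*, with gaps between neighbours of 0.38, 0.14, 0.36, 0.28 and 0.35 on the log2 scale. How far a single centred value may lie from a repeat can be read from other genes, since none of the 6 was measured again. For 1982 gene numbers with values on arrays 2 and 3, the centred log2 ratios of the same number differed by a median of 0.42 between both arrays, with an upper quartile of 0.80. For the 1255 of these whose array 3 value lay in the range of the cardiac regulators, the median difference was 0.41. Between arrays 1 and 3 the median difference was 0.78 over 937 numbers, with an upper quartile of 1.43. For the 532 of these whose array 3 value lay in the range of the cardiac regulators, the median was 0.49 and the upper quartile 0.86. All gaps between neighbours in the order were smaller than these medians. For numbers in that range, the gap of 0.64 between *Doc1* and *Doc2* exceeded the median difference of both pairs of arrays. It lay within the upper quartiles of 0.72 for arrays 2 and 3 and of 0.86 for arrays 1 and 3. The distance of 1.51 from *svp* to *Mef2* is that between the lowest and the highest of 6 values, and it was not set against the difference of a single gene between arrays. These differences describe repeated hybridization of the same pools, in genes that were measured on a further array.

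A wider set of 51 genes around these regulators was looked up, of which 30 had a row, under 33 numbers. Values on 2 or more arrays were present for 16 of these numbers. By the rule of 2 arrays, 3 numbers were lower (*akirin* and a pair of numbers of *Mlp60A*) and 3 were higher (*GATAd*, *lbl* and a further number of *Mlp60A*), against the shares of 20.5% and 9.69% given above. On centred arrays 2 numbers were lower (*akirin* and CG30174 of *Mlp60A*). The 3 higher numbers were then *eve*, CG33464 of *sli* and CG30179 of *Mlp60A*, so that CG30179 alone was higher on both scales. As deposited, both counts were 0 without array 2, as was that of lower numbers without array 3 and that of higher numbers without array 1. The 3 lower numbers had values on arrays 2 and 3 alone. Their count of 0 without either array was thus fixed by the number of values. limma was run with the arrays taken as independent and covers the spread between arrays only. It passed 2 of the 16 numbers at an adjusted p threshold of 0.05, *akirin* and CG30174, both as deposited and after centring. Of all 2517 numbers, 5.72% and 5.88% passed. The paper had already listed *akirin* as lower from these same arrays, and the lists were chosen with earlier results known. The counts of this set are therefore no independent support.

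Of 4 other T-box and GATA numbers with a row, 2 had values on several arrays, against 33.6% of all numbers in the table. Of the T-box genes *org-1*, *bi* and *byn*, a row was found for *byn* (CG7260), a regulator of hindgut development, with log2 ratios of 1.07 on array 2 and -0.23 on array 3. After centring these were 0.70 and 0.33, a mean of 0.51 ± 0.26 (SD, n = 2 arrays). Of 4 GATA genes besides *pnr*, 3 had a row and *grn* had none. *GATAd* (CG5034) had 1.38, 0.73 and -1.0 on arrays 1, 2 and 3, and its rise by the deposited values was lost on centred arrays, with 0.41, 0.35 and -0.44. *srp*, needed for blood and fat body, was measured on array 2 alone with 2.15, and *GATAe*, a gut regulator, on array 3 alone with 0.19.

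The proteins that work with Hand or with the other regulators were mostly unmeasured or without a value past the thresholds on 2 arrays. Of 12 such genes, 6 had a row, and the Hand partners *da*, *twi* and *Hey* and the Pnr cofactor *ush* had none. *nau* (CG10250), a basic helix-loop-helix gene of muscle founder cells, had log2 ratios of 0.59 on array 2 and -0.43 on array 3, with a mean of 0.17 ± 0.06 (SD, n = 2 arrays) after centring. *Him* (CG15064), an inhibitor of Mef2 activity, had 1.04 on array 1 and -0.88 on array 3, centred 0.07 and -0.33. *Six4* (CG3871), a homeobox gene of mesoderm, had -1.24 on array 1 and -0.48 on array 3, but after centring -2.20 and 0.08, so that its arrays lay far apart. *akirin* (CG8580), which encodes a nuclear cofactor of Twist, was the exception with -2.84 on array 2 and -4.07 on array 3. Its centred mean was -3.36 ± 0.21 (SD, n = 2 arrays), with adjusted p of 0.00122 as deposited and 0.0390 centred in limma. As deposited, limma used a variance common to all numbers, so that the spread of a number's own arrays had no weight. *lmd*, an activator of Mef2 expression, and *vg* were measured on array 3 alone. *lmd* had a log2 ratio of -1.61, or -1.05 after centring, and *vg* had 0.18, or 0.74 after centring.

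Of 13 further regulators of the cardiac mesoderm, 6 had a row, and 2 of these, *eve* and *lbl*, had the values that the rule of 2 arrays needs. Neither was scored as lower, where 20.5% of all numbers with 2 or more values were. The *eve* gene (CG2328), which marks a group of pericardial cells in the embryo, had log2 ratios of 1.05 on array 2 and -0.11 on array 3, and after centring 0.68 and 0.44, both over the threshold. *lbl* (CG6570), a homeobox gene of heart and muscle precursors, had 1.14, 0.71 and 0.05 on the 3 arrays as deposited and 0.17, 0.34 and 0.60 after centring, with a mean of 0.37 ± 0.22 (SD, n = 3 arrays). Neither passed limma, with an adjusted p of 0.391 for *eve* and 0.429 for *lbl* on centred arrays. After centring, the 4 values of this list on array 3 lay between 0.32 and 0.75, with 3 of them over the upward threshold, where 27.3% of all values of the array lay. *tup*, a homeobox gene, had its one value on array 2 at -0.30 after centring, and *zfh1*, a zinc finger gene, its one value on array 1 at -0.0048.

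Effector genes of heart and muscle, several of which are Mef2 targets, were better covered, with 14 of 19 genes under 17 numbers. *Sur* (CG5772), a heart gene under the control of Tin, had log2 ratios of 1.06 on array 2 and -0.94 on array 3, and after centring 0.68 and -0.39. *Tm1* (CG4898), a tropomyosin, had 1.27, -0.45 and -1.02, and after centring 0.30, -0.83 and -0.46. *Mlc1* (CG5596), a myosin light chain, had 0.11 on array 2 and -1.64 on array 3, centred -0.26 and -1.08. The values of these 3 genes did not share a side of the threshold on 2 arrays. *sli*, the ligand of Robo receptors at the heart lumen, stood under a pair of numbers, with centred values on arrays 2 and 3 of 0.47 and 0.85 for CG33464 and of 0.10 and 0.80 for CG8355.

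Numbers assigned to 1 gene did not always move together. *Mlp60A*, which encodes a muscle LIM protein regulated by Mef2, stood under 3 numbers. CG30174 had log2 ratios of -2.60 on array 2 and -4.43 on array 3. Its adjusted p in limma was 0.00103 as deposited, with a variance common to all numbers, and 0.0390 centred. CG33149 had -0.93 and -0.96 on arrays 2 and 3, and its score as lower was lost on centred arrays, with -1.31 and -0.41. CG30179 had 1.27, 0.82 and 0.07 on the 3 arrays. Since the values are listed by older gene numbers, a list gene is given under each number that RefSeq assigns to it. The 6 measured regulators were listed under their current number alone.

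**Figure D3:**
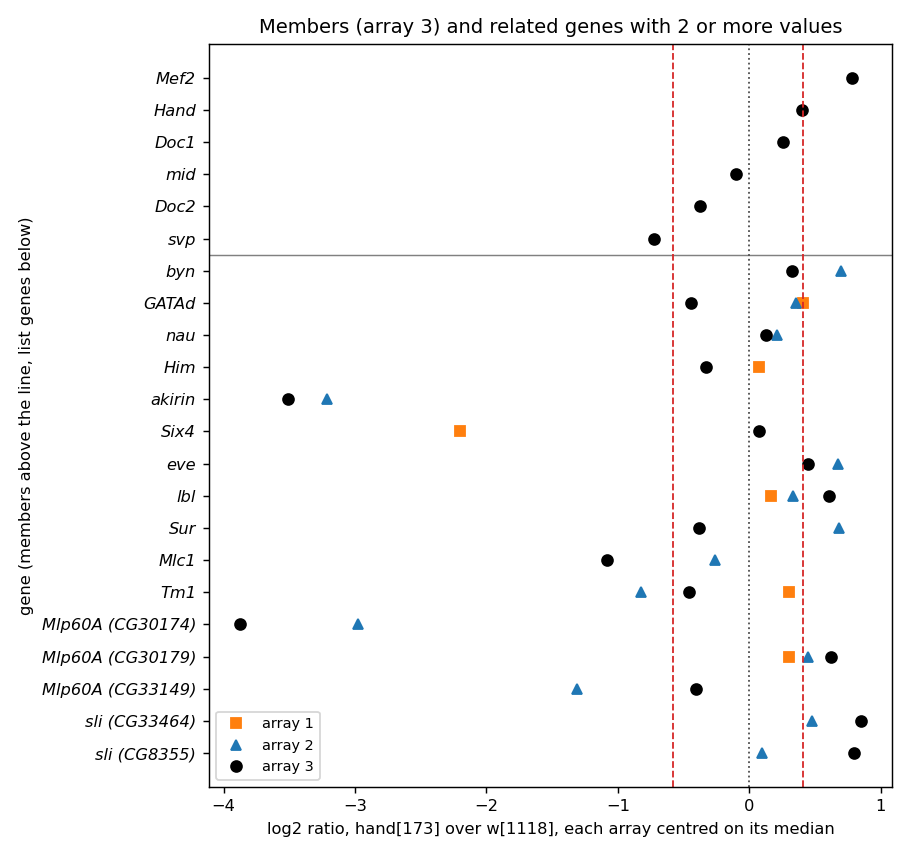
Log2 ratios of hand[173] over w[1118], each array centred on its median (horizontal axis), for the 6 measured regulators above the line and for the 16 numbers of related genes with 2 or more values below it. Symbols stand for the arrays, the dotted line for the array median and the dashed lines for log2 ratios of -0.58 and 0.41. The regulators have array 3 values alone, from -0.73 to 0.78, and *akirin* and CG30174 lie lower than all other numbers drawn.

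Markers of the dissected tissue and of neighbouring cell types were counted in the same way. Rows were found for 3 of 6 pericardial nephrocyte genes, 7 of 10 genes of body wall and alary muscle, 5 of 6 fat body genes, 2 of 6 hemocyte genes, 3 of 4 tracheal genes and 3 of 5 nervous system genes. Log ratios hold no expression level, so that the presence of heart cells in the pools cannot be read from them, and the defining heart genes *tin* and *prc* had no row. On array 3 after centring, pericardial markers lay between -0.19 and 0.80 and muscle markers between -1.78 and 1.31. Fat body markers lay between -3.05 and 1.04 with a median of 0.19, and the 2 hemocyte markers at -2.41 and -0.22. Tracheal markers lay between -2.31 and 0.49 and nervous system markers between -1.10 and 2.11. By the rule of 2 arrays, *Lsp1alpha* of fat body and *Pxn* of hemocytes were lower, as deposited and centred. On array 1, however, *Lsp1alpha* had 1.36 and *Pxn* 0.30 as deposited, and 0.39 and -0.67 after centring. Neither passed limma, with adjusted p of 0.0752 and 0.260 as deposited and of 0.241 and 0.0814 centred. *Fbp1* was higher as deposited alone, and *Lsp1gamma* was neither. The other marker numbers had 1 value each. Of all numbers with 2 or more values, 20.5% were lower as deposited and 21.9% centred, and 9.69% were higher as deposited. The part of these cell types in the ratios of the cardiac regulators was not tested.

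The genes next to the regulators on their chromosomes were also read, 3 with a row on each side, in the order of RefSeq. This gave 43 numbers besides the regulators, of which 21 had 2 or more values. By the rule of 2 arrays, 2 of the 21 were lower and 2 were higher, where 20.5% and 9.69% of all numbers were. On centred arrays 3 were lower and 4 were higher, against 21.9% and 11.8% of all numbers. The neighbours were thus not scored as lower more often than the table as a whole. Both numbers that were lower as deposited lie near *svp*. *Cyp313a2* (CG10094), a cytochrome P450 gene, had -2.45 on array 2 and -2.98 on array 3, and CG17738 had -2.45 and -2.01. With 5 genes lying between *svp* and *Cyp313a2*, and 4 between *svp* and CG17738, neither is its direct neighbour. The further number that was lower on centred arrays, *MBD-R2* (CG10042), lies 17 genes from *svp* on the side of CG17738. It had centred values of -0.70 on array 1 and -0.62 on array 3. The other neighbours of *svp* had 1 value each. After centring, these were 0.07 for CG3916 and -0.36 for CG12256 on array 3, and -0.13 for *Tim17a1* on array 1. The numbers that were higher as deposited were *lbl*, described above, on the side of *tin*, and CG30008 on the side of *Mef2*, with 0.61, 1.14 and -0.19 on arrays 1, 2 and 3. With each array centred, neither of these was higher on 2 arrays. The 4 numbers that were higher on centred arrays were *CheB93b* near *tin*, *IKKbeta* near *pnr*, *Argk2* near the *Doc* genes and *eve* near *Mef2*.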

How the data were processed

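Total RNA of larval hearts was amplified, labelled with Alexa Fluor dyes and hybridized to spotted arrays. The authors scanned and normalized the arrays with the programs GenePix and Acuity, and the deposited values are log2 ratios, 1 for each gene number and array. The normalization method, the spot filter, the treatment of several spots and the genome build are not given in the sources used here. Scans and spot brightness were not analysed here, and the signal over background is therefore not known. The number of arrays limits the precision.

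All 3 columns were used as deposited and centred on each array's median. The factor of each array was searched among steps that make ratios from 0.1 to 1 whole thousandths. Names came from RefSeq (Release 6 plus ISO1 MT), where 7085 of 7498 numbers were found. Its start coordinates were used to order the genes along each chromosome. limma was fitted against 0 to all 2517 numbers with 2 or more values, with Benjamini-Hochberg adjustment, and was tested on simulated data. Its p-values take the arrays as independent and leave out the spread between animals. In the fit to the deposited values the variance was common to all numbers, and a number's own spread had no weight. Named are all members, list genes with 2 or more values, and 6 with a value on 1 array (*srp*, *GATAe*, *lmd*, *vg*, *tup* and *zfh1*). Also named are markers with 2 or more values, neighbours scored as deposited or on centred arrays, and the other neighbours of *svp*. Genes singled out for their values are named too, which is said beside them. Genes nearest to a member over 3 arrays could not be named, since no member had 3 values. The members and lists were chosen with earlier results of these data known. No sequences were used. Alternatives were centring, scaling, other thresholds, 1 array or the mean in place of 2 arrays, further gene numbers, leaving out each array, limma and, added after the values were seen, removal of the factor. Python 3.11.15, numpy 2.4.6, pandas 2.3.3, matplotlib 3.10.9, R 4.3.3 and limma 3.58.1 were used.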

Additional observations from a re-analysis of the deposited data

How the results depend on the processing

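The count of 0 regulators scored as lower became 3 when 1 array was enough or when the mean log2 ratio had to pass the threshold, and 1 when centred values were used in these ways. The count of 0 scored as higher became 1 with centred values under either rule. For the regulators, both rules read the array 3 value alone. On this array 49.0% of all values lay under 0.67 as deposited. After centring, 28.1% lay under 0.67 and 27.3% over the upward threshold. The 2-fold threshold, the threshold symmetric on the log scale, an upward threshold of 1.5, centring under the rule of 2 arrays and leaving out any array kept both counts at 0, which the single values fix. On centred arrays *Hand* turned to 0.40 and *Doc1* to 0.26, and with scaling to a common spread to 0.40 and 0.26. After division by the common factor, a setting added once the data had been seen, *Hand* turned to 0.97, *Doc1* to 0.83, *Doc2* to 0.19 and *mid* to 0.47. The choice of scale alone makes these shifts, which under centring and under division by the factor are the same for every gene of array 3. Leaving out array 3 leaves no value for any of the 6 genes. Over the related genes, the numbers scored as lower and as higher each ran from 0 to 3 when 1 array was left out, with 0 lower numbers without array 2 or 3 and 0 higher numbers without array 1 or 2. The lower numbers had values on arrays 2 and 3 alone, so that their count of 0 was fixed by the number of values. Limma could not be fitted for the regulators, and no further gene number of a regulator had a row. No paired analysis was possible because all arrays carry the same pair of pools. Depth does not apply to arrays, and signal over background is unknown.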

Other observations

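Beside *Hand*, the nearest genes on both sides had values at opposite ends of array 3. They are named here after their values were seen. *CYLD* (CG5603), a deubiquitinase gene and the direct neighbour of *Hand* on the side of higher coordinates, had a log2 ratio of -3.89 on array 3, a ratio of 0.0674, and 1.05% of the values of that array were lower. *Ufd4* (CG5604), a ubiquitin ligase gene and the direct neighbour on the other side, had 1.19 on array 3, above 98.7% of the values, and 0.22 on array 1. After centring these were 1.74 on array 3 and -0.75 on array 1, so that its arrays lay on opposite sides of their medians. *nmd* (CG5395), which lies 4 genes from *Hand* in RefSeq order, had 2.01 on array 3, above 99.5% of the values. *CYLD* and *nmd* had no value on a further array, and *Ufd4* was scored neither as lower nor as higher by the rule of 2 arrays. Next to *Doc1*, the arginine kinase gene *Argk2* (CG5144) had log2 ratios of 6.92 on array 2 and 0.01 on array 3, and 6.55 and 0.57 after centring, so that its arrays lay far apart.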
